A study of Mus musculus with 4 samples.

Results

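The miR-29 family comprises the 3 mature 3p-arm miRNAs miR-29a-3p, miR-29b-3p and miR-29c-3p, taken by name from the 1078 mature miRNAs of the series table. All 3 were present. Values of miR-29b-3p were summed over its 2 hairpins, because both yield the same mature sequence. The family was followed across 4 small-RNA libraries of C57BL/6J mouse cells, 1 library per cell type. No difference between cell types could therefore be tested, and intervals below cover counting error only.

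The haematopoietic stem cells (HSC) were sorted from marrow as c-Kit+, Sca1+ and lineage-negative cells to a purity above 95%. Immature dendritic cells (imDC) grew from marrow progenitors of mice aged 5 to 6 weeks during 6 days in GM-CSF (10 ng/mL) and IL-4 (1 ng/mL). Mature dendritic cells (maDC) additionally received LPS (10 ng/mL) from day 4 and were enriched with CD11c beads on day 8. Regulatory dendritic cells (DCreg), described in the series as producing IL-10 and NO, were maDC held for 7 or more days on endothelial-like stroma from spleen and then enriched with CD11c beads. The 3 dendritic cell types thus share the cytokine culture, whereas maDC and imDC also differ in culture time and bead selection. DCreg were cultured for longer than both. Whether the cells of a library came from 1 animal or from a pool is not stated in the labels.

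miRNAs are short RNAs that guide Argonaute proteins to messenger RNAs, mainly by pairing of the seed, which is bases 2 to 8 from the 5' end. The miR-29 family is known for repressing collagens and other matrix genes, the de novo DNA methyltransferases and the survival factor Mcl1, and in mouse T cells the transcription factors behind interferon gamma. In mouse haematopoietic progenitors, forced miR-29a expression is known to drive a myeloid disorder. The members are given here because they share 1 seed, printed in capitals (mature sequences from RefSeq, build GRCm38.p6). No other mature miRNA in the table carried that seed.
miR-29a-3p: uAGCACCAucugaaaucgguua
miR-29b-3p: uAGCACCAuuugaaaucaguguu
miR-29c-3p: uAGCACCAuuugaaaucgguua

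Counting from the 5' end, miR-29c-3p differs from miR-29a-3p by the single substitution C10U. miR-29b-3p carries the same C10U and, relative to miR-29c-3p, also G18A, U21G and A22U, with a final extra base that makes it 23 nt rather than 22 nt long. miR-29b-3p and miR-29c-3p are therefore identical over their first 17 bases. As background, the uracils after the seed of miR-29b and miR-29c have been linked to faster turnover in human cells, and the last 6 bases of human miR-29b, AGUGUU, are known as a nuclear import element.

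The 4 hairpins form 2 clusters (GRCm38). Mir29a (chr6:31062660-31062747, minus strand) and Mir29b-1 (chr6:31063023-31063093, minus strand) lie 275 bases apart. Mir29b-1 overlaps an exon of the lincRNA Gm27019 by 2 bases, and no other annotated gene overlaps Mir29a. Mir29b-2 (chr1:195037040-195037120, plus strand) and Mir29c (chr1:195037547-195037634, plus strand) lie 426 bases apart. Both sit within an exon of the non-coding gene A330023F24Rik on the same strand, and opposite the untranslated end of Cd46, which encodes a complement regulator. The hairpins of the first cluster are shown because Mir29a gives the most abundant member and Mir29b-1 is 1 of the 2 hairpins that give miR-29b-3p; capitals mark the 3p arm.
Mir29a: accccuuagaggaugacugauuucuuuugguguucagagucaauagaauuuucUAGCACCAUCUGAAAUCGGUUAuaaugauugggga
Mir29b-1: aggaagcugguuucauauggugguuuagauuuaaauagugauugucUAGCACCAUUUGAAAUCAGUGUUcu

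Each library was measured in 2 ways. The series table holds values headed as normalised counts, which were scaled to ppm (parts per 1000000) of the column total; those totals ran from 2725948 to 5251069. The unique sequences deposited with their copy numbers, 4904897 to 6572858 reads per library, were also recounted by exact match to the mature sequences, which placed 80.2% to 84.0% of them. Markers of other cell types moved with the HSC library. All 3 measured erythroid markers (miR-144-3p, miR-451 and miR-486-5p) summed to 1.56 to 19.0 ppm in the DC libraries, against 13763 ppm in HSC. The 3 muscle markers summed to 40.6 to 259 ppm in the DC libraries, where miR-133a-3p was listed at 0 in maDC and DCreg, against 8676 ppm in HSC. The 5 stromal markers summed to 1083 ppm in HSC, 61.3 ppm in imDC, 177 ppm in maDC and 255 ppm in DCreg. Single stromal markers parted between maDC and DCreg. miR-143-3p (40.9 ppm in maDC and 155 ppm in DCreg) and miR-145-5p were higher in DCreg. miR-199a-3p (120 ppm in maDC and 79.6 ppm in DCreg), miR-214-3p and miR-199a-5p were lower. Both lymphoid markers summed to 1443 to 3943 ppm in the DC libraries against 7697 ppm in HSC, and both endothelial markers summed to 1.47 to 8.00 ppm against 121 ppm in HSC. The lymphoid sum in the DC libraries was nearly all miR-181a-5p, at 3926 ppm in imDC, where miR-150-5p stood at 17.1 ppm. The 4 myeloid markers summed to 43512 ppm in HSC, 153291 ppm in imDC, 86004 ppm in maDC and 72014 ppm in DCreg. That sum followed miR-21-5p, at 140653 ppm in imDC and 19982 ppm in HSC; miR-223-3p, miR-142-3p and miR-142-5p had log2 ratios of -0.60, -0.40 and -0.99 in imDC over HSC. The 5 miRNAs listed for activated dendritic cells summed to 7833 ppm in HSC, 94139 ppm in imDC, 70508 ppm in maDC and 37952 ppm in DCreg, so the LPS-treated maDC library held less than imDC. All 5 had negative log2 ratios in maDC over imDC, with miR-155-5p at -0.66, and 1 of 5 was called lower. Their sum followed miR-146b-5p, at 89225 ppm in imDC and 36546 ppm in DCreg. miR-146a-5p alone was lower in imDC than in HSC (log2 ratio -0.50), and it alone was higher in DCreg over maDC (1.85). The part of these markers in the miR-29 differences was not tested. The HSC and progenitor markers had similar sums in DCreg (2763 ppm) and HSC (2727 ppm), against 610 ppm in imDC and 1046 ppm in maDC. Single members went opposite ways: miR-196b-5p stood at 12.5 ppm in DCreg and 251 ppm in HSC, miR-126-3p at 0.37 ppm in DCreg and 49.2 ppm in HSC, and miR-125b-5p at 363 ppm in DCreg and 58.0 ppm in HSC. Fewer cells that express a miRNA and less of it per cell cannot be told apart in such libraries.

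miR-29a-3p ranked high in every library and was higher in all 3 dendritic cell libraries than in HSC. It stood at 31270 ppm in HSC, 48046 ppm in imDC, 54571 ppm in maDC and 57230 ppm in DCreg, ranks 11, 8, 7 and 6 of the table. Recounted reads gave 16554 ppm in HSC, 33693 ppm in imDC, 29518 ppm in maDC and 31199 ppm in DCreg. HSC was lowest by both measures. The order among the dendritic cells depended on the measure, since imDC was lowest of the 3 by the deposited values and highest by the recount.

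miR-29c-3p, the member that differs from it by 1 base, was 30.0 to 48.4 times scarcer and also lowest in HSC. Its deposited level was 748 ppm in HSC, 1603 ppm in imDC, 1649 ppm in maDC and 1230 ppm in DCreg. The recount gave 368, 1018, 805 and 644 ppm in the same order. By both measures imDC and maDC held more than DCreg, and DCreg held more than HSC.

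miR-29b-3p followed another course and was highest in imDC by both measures. Its deposited level was 306 ppm in HSC, 774 ppm in imDC, 416 ppm in maDC and 325 ppm in DCreg. The recount gave 447 ppm in HSC (95% exact binomial interval 429 to 465), 1466 ppm in imDC (1433 to 1499), 513 ppm in maDC (494 to 532) and 379 ppm in DCreg (360 to 399). The imDC library stood apart, whereas HSC, maDC and DCreg lay close together. The count depended on its shortened reads. Another count, chosen after seeing the data, took only reads ending within 1 nt of the annotated 3' end, scaled to such reads of all miRNAs. By it maDC was highest at 515 ppm, against 403 ppm in imDC. DCreg stood at 336 ppm and HSC at 96.9 ppm on that scale, so HSC no longer lay close to maDC and DCreg. The 2 measures differed more for this member than for the others: the deposited value was 0.526 to 0.657 times the recounted reads for miR-29b-3p, but 1.27 to 1.54 times for miR-29a-3p and 1.32 to 1.66 times for miR-29c-3p. The table divided miR-29b-3p almost evenly between its hairpins, with 668 for mir-29b-2 and 625 for mir-29b-1 in HSC and 2044 and 2019 in imDC. Since both hairpins give the same 23 bases, these rows do not show which locus was active.

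**Figure D1:**
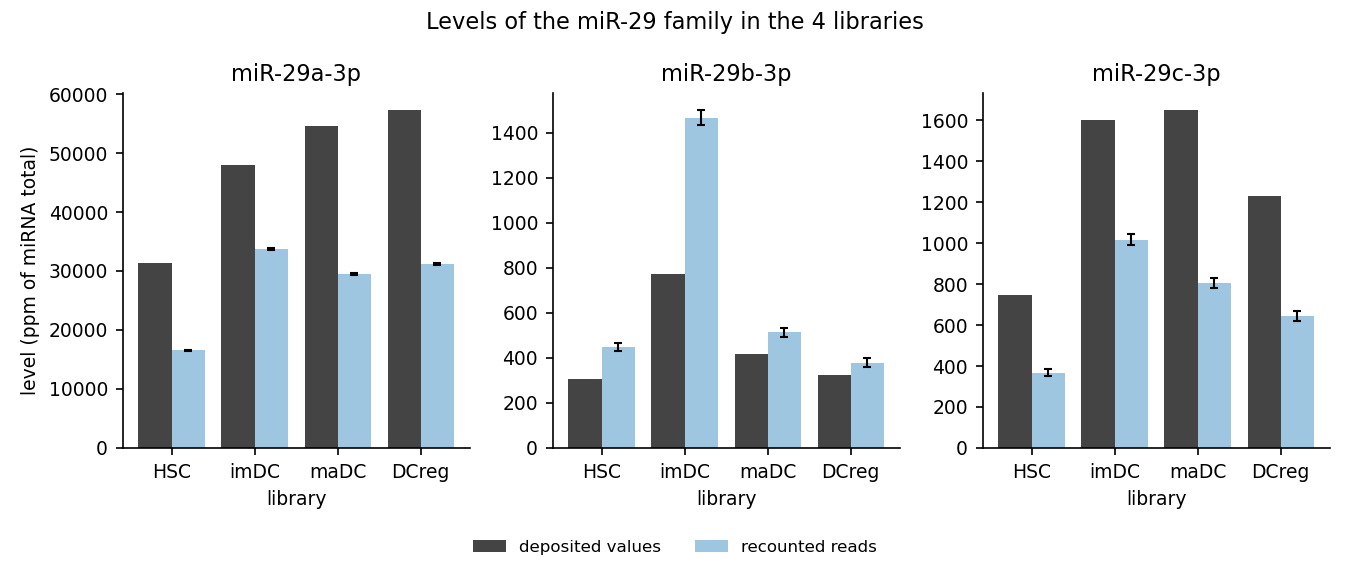
Levels of the 3 members in each library, as deposited values (dark bars) and recounted reads (light bars), both in ppm of the miRNA total on linear axes that differ between panels; bars on the recount are exact 95% counting intervals and each bar is 1 library. miR-29a-3p and miR-29c-3p are lowest in HSC, and miR-29b-3p is highest in imDC, at 1466 ppm in the recount.

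Within the family, miR-29a-3p supplied 95.3% of recounted reads in HSC, 93.1% in imDC, then 95.7% in maDC and 96.8% in DCreg. The share of miR-29b-3p was 2.57% in HSC, 4.05% in imDC (95% interval 3.96% to 4.14%), 1.66% in maDC and 1.18% in DCreg. That of miR-29c-3p was 2.12%, 2.81%, 2.61% and 2.00%. miR-29b-3p thus outnumbered miR-29c-3p in HSC and imDC and was outnumbered by it in maDC and DCreg. In the deposited values miR-29c-3p was the larger of the pair in all 4 libraries, with miR-29b-3p at 0.552% to 1.53% of the family. It was also the larger in all 4 when only reads ending within 1 nt of the annotated 3' end were counted. By that count, chosen after seeing the data, miR-29c-3p had 1865 reads against 434.5 of miR-29b-3p in HSC. In imDC it had 5263.5 against 1728.5.

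The first comparison sets imDC, grown from marrow progenitors in culture, beside HSC sorted from marrow. Culture and sorting thus differ along with cell type. A difference was called when it reached 2-fold with at least 100 ppm in 1 of the 2 libraries. miR-29b-3p was 2.53-fold higher in imDC (recount 3.28-fold, 3.13 to 3.44) and miR-29c-3p 2.14-fold higher (recount 2.77-fold, 2.63 to 2.92). miR-29a-3p was 1.54-fold higher by the deposited values, under the 2-fold line, and 2.04-fold higher by the recount (2.02 to 2.05). So 2 of 3 members were called higher, where 26.2% of the 187 miRNAs tested were; by the recount 3 of 3 were called, where 36.7% of 147 were. The summed family stood at 50422 ppm in imDC and 32324 ppm in HSC, a log2 ratio of 0.64 (1.06 in the recount), beside a median of -0.12 over all miRNAs tested.

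The maDC against imDC comparison covers LPS maturation, together with the longer culture and bead selection. Here the members parted. miR-29b-3p was 1.86-fold lower in maDC by the deposited values, short of the 2-fold line, and 2.86-fold lower by the recount (2.74 to 2.98). miR-29a-3p and miR-29c-3p stayed near level: their log2 ratios were 0.18 and 0.04 in the deposited values and -0.19 and -0.34 in the recount, so the sign depended on the measure. Scaled by the trimmed mean of M-values the ratios were 0.73 and 0.59, and by the median of ratios 0.89 and 0.75, still under 2-fold. Under the same scalings miR-29b-3p had log2 ratios of -0.34 and -0.19. By reads ending within 1 nt of the annotated 3' end, a count chosen after seeing the data, the order turned. miR-29b-3p then stood at 0.35, miR-29a-3p at -0.33 and miR-29c-3p at -0.47. No member was called by the deposited values, where 9.38% of 160 miRNAs tested were called higher in maDC and 45.0% lower. By the recount 1 of 3 was called lower, where 59.1% of 132 were lower and 1.52% higher. The median log2 ratio of all tested miRNAs was -0.88, so miR-29a-3p lay 1.07 and miR-29c-3p 0.92 log2 units above that median and miR-29b-3p lay 0.01 below it.

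The DCreg against maDC comparison covers the stay on splenic stroma together with the longer culture that it brings. No member reached 2-fold in it by either measure. miR-29a-3p was 1.05-fold higher in DCreg, at 57230 ppm against 54571 ppm in maDC, and its log2 ratio turned to -0.22 with all listed reads as the total. miR-29b-3p was 1.28-fold lower (recount 1.35-fold, 1.27 to 1.44) and miR-29c-3p 1.34-fold lower (recount 1.25-fold, 1.19 to 1.31). Of the 138 miRNAs tested, 20.3% were called higher in DCreg and 28.3% lower (18.1% and 24.8% of 105 by the recount). The family log2 ratio was 0.05, and it turned to -0.24 when all listed reads served as the total.

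Against imDC, DCreg held 2.38-fold less miR-29b-3p (recount 3.87-fold less, 3.66 to 4.09), the only call of a lower member in the deposited values. Of 168 miRNAs tested, 56.0% were called lower in DCreg and 16.1% higher, so this call stood at the common level of the comparison: the log2 ratio of miR-29b-3p was -1.25, equal to the median of all tested. Scaled by the trimmed mean of M-values, the ratio was -0.60 and no longer a call. Counted by reads ending within 1 nt of the annotated end, miR-29b-3p was only 1.20-fold lower in DCreg than in imDC. That count was chosen after seeing the data, and by it miR-29a-3p was 1.18-fold and miR-29c-3p 1.78-fold lower. By the recount 65.7% of 137 were lower and 12.4% higher. miR-29c-3p was 1.30-fold lower in DCreg (recount 1.58-fold, 1.51 to 1.66), though its log2 ratio was 0.27 under the trimmed mean of M-values. miR-29a-3p was 1.19-fold higher by the deposited values and 1.08-fold lower by the recount.

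Compared with HSC, both later dendritic cell types held more miR-29a-3p and miR-29c-3p. miR-29a-3p was 1.75-fold higher in maDC (recount 1.78-fold, 1.77 to 1.80) and 1.83-fold higher in DCreg (recount 1.88-fold, 1.87 to 1.90). miR-29c-3p was 2.20-fold higher in maDC (recount 2.19-fold, 2.07 to 2.31) and 1.64-fold higher in DCreg (recount 1.75-fold, 1.65 to 1.86). miR-29b-3p was 1.36-fold higher in maDC (recount 1.15-fold) and 1.06-fold higher in DCreg, where the recount put it 1.18-fold lower. Counted by reads ending within 1 nt of the annotated end, it was 5.31-fold higher in maDC than in HSC and 3.47-fold higher in DCreg than in HSC. In maDC over HSC 1 of 3 members was called higher, where 21.7% of 180 miRNAs were and 48.9% were lower; in DCreg over HSC none was called, where 19.4% of 175 were higher and 56.0% lower. By the recount the same member was called in maDC over HSC, where 21.2% of 132 were higher and 47.7% lower, and none in DCreg over HSC, where 17.4% of 132 were higher and 56.1% lower. Under the trimmed mean of M-values and the median of ratios, all 3 members were called higher in maDC over HSC, and miR-29a-3p and miR-29c-3p in DCreg over HSC, with log2 ratios of 1.73 and 1.58 under the trimmed mean of M-values. The family log2 ratios of 0.81 in maDC and 0.86 in DCreg stood beside medians of -0.97 and -1.43. The 6 comparisons share libraries, so their values are given side by side and not as independent results.

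**Figure D2:**
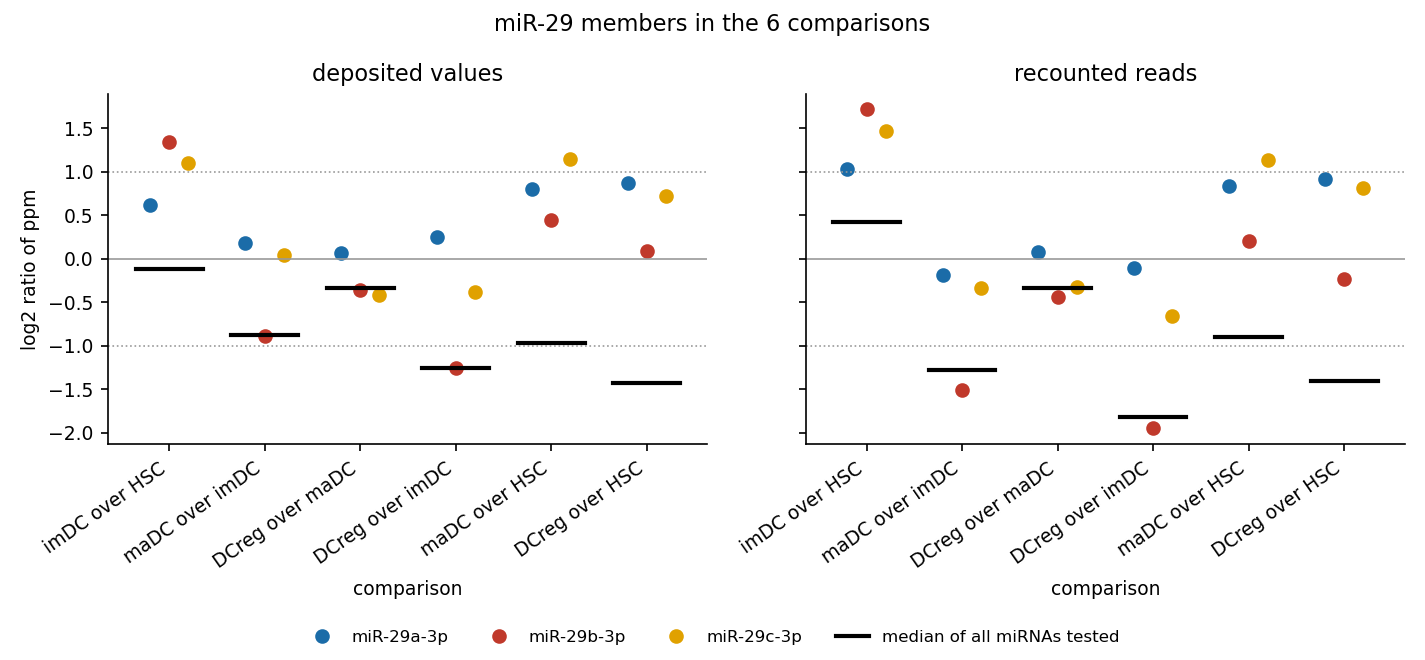
Log2 ratio of ppm for each member (points) in the 6 comparisons, from deposited values (left) and recounted reads (right); black lines are the medians of all miRNAs tested and dotted lines mark 2-fold, with each point resting on 1 library per cell type. miR-29a-3p lies above the median line in all 6 comparisons by both measures, and miR-29b-3p lies close to it in maDC over imDC, DCreg over maDC and DCreg over imDC.

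Over the 18 pairs of member and comparison, the deposited values gave 3 calls higher and 1 lower, and the recount 4 higher and 2 lower. Other scalings of the deposited values moved the whole table: the trimmed mean of M-values shifted the median of all miRNAs by up to 0.86 log2 units, in DCreg over HSC. Under it and under the median of ratios, 7 pairs were called higher and 0 lower. Because a scaling shifts every miRNA and the median alike, distances from the median cannot change with it. In the deposited values the family lay 0.76 log2 units above the median in imDC over HSC and 1.05 in maDC over imDC. It lay 0.40 above in DCreg over maDC and 2.30 in DCreg over HSC.

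The 5p arms, the strands cut from the other side of each hairpin, were rare and none reached 100 ppm. Together they made up 0.0576% of the reads of both arms in HSC (exact interval 0.0430% to 0.0755%), 0.163% in imDC (0.146% to 0.183%), 0.0516% in maDC (0.0414% to 0.0636%) and 0.0245% in DCreg (0.0166% to 0.0347%). The imDC share lay above the intervals of the other 3 libraries. Taken by member, this held for miR-29b (1.96% in imDC, 1.66% to 2.29%) and miR-29c (1.20%, 0.925% to 1.52%) but not for miR-29a. The imDC intervals of both nevertheless overlapped another library. For miR-29b this was maDC (0.880% to 1.73%), and for miR-29c it was HSC (0.286% to 1.02%). The 5p share of miR-29a in imDC, 0.0524%, lay inside the HSC interval of 0.0254% to 0.0525%. The 5p arms of miR-29b are shown because, unlike the 3p arm, they tell its 2 hairpins apart (seed in capitals).
miR-29b-1-5p: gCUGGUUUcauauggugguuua
miR-29b-2-5p: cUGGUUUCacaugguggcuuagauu

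miR-29b-1-5p, from the chromosome 6 cluster, had 4 recounted reads in HSC, 125 in imDC, 19 in maDC, with 4 in DCreg. It was 30.8-fold higher in imDC than in HSC (11.7 to 115), 6.90-fold lower in maDC than in imDC (4.24 to 11.8) and 23.3-fold lower in DCreg than in imDC (8.89 to 86.9). miR-29b-2-5p, from chromosome 1, had 5 reads in HSC, 29 in imDC, then 17 in maDC and 3 in DCreg, and was 5.72-fold higher in imDC than in HSC (2.19 to 18.9). Both strands were most frequent in imDC, as was the 3p arm they accompany. miR-29a-5p had 32 reads in HSC, 93 in imDC, 38 in maDC, with 11 in DCreg, and miR-29c-5p had 11, 65, 14 and 13. All 4 passenger strands therefore had their highest recounted level in imDC. The table as a whole went the same way. By the recount, the median log2 ratio of all miRNAs tested was 0.42 in imDC over HSC. It was -1.28 in maDC over imDC and -1.82 in DCreg over imDC. In maDC over imDC miR-29b-2-5p, at -0.82, lay above that median.

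The largest difference within the family lay at the 3' end of miR-29b-3p. Its reads were mainly of 4 lengths, printed here as copied from the deposited sequences, with bases from position 18 in capitals.
miR-29b-3p 20 nt: tagcaccatttgaaatcAGT
miR-29b-3p 21 nt: tagcaccatttgaaatcAGTG
miR-29b-3p 22 nt: tagcaccatttgaaatcAGTGT
miR-29b-3p 23 nt: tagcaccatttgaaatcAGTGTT

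The 20-nt sequence had 1447 copies in HSC, 4744 in imDC, then 122 in maDC and 106 in DCreg. The full 23-nt sequence had 253 copies in HSC, 1164 in imDC, 2008 in maDC, with 738 in DCreg. The short form predominated in HSC and imDC, and the full form in maDC and DCreg. The intermediate 21-nt sequence, with 305, 912, 49 and 44 copies, went with the short form. The 22-nt sequence, with 136, 358, 360 and 330 copies, was also commoner than the 20-nt form in maDC and DCreg.

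Scaled to recounted totals, the 20-nt form stood at 22.1 ppm in maDC and 900 ppm in imDC, a 40.8-fold lower level in maDC (34.1 to 49.2). The 23-nt form went the other way, at 364 ppm in maDC and 221 ppm in imDC, 1.65-fold higher in maDC (1.53 to 1.77). DCreg held 33.4-fold less of the 20-nt form than imDC (27.6 to 40.9) and 1.18-fold less of the 23-nt form (1.07 to 1.29). Between DCreg and maDC the 20-nt form differed by 1.22-fold with an interval of 0.932 to 1.60 that includes 1, whereas the 23-nt form was 1.94-fold lower in DCreg (1.78 to 2.11). Against HSC, maDC held 12.6-fold less of the 20-nt form (10.5 to 15.3) and 7.47-fold more of the 23-nt form (6.55 to 8.55). In imDC both forms were higher than in HSC, by 3.23-fold (3.05 to 3.43) and 4.54-fold (3.96 to 5.22). The lower total of miR-29b-3p in maDC than in imDC was thus made up of fewer 20- and 21-nt reads and more full-length ones.

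**Figure D3:**
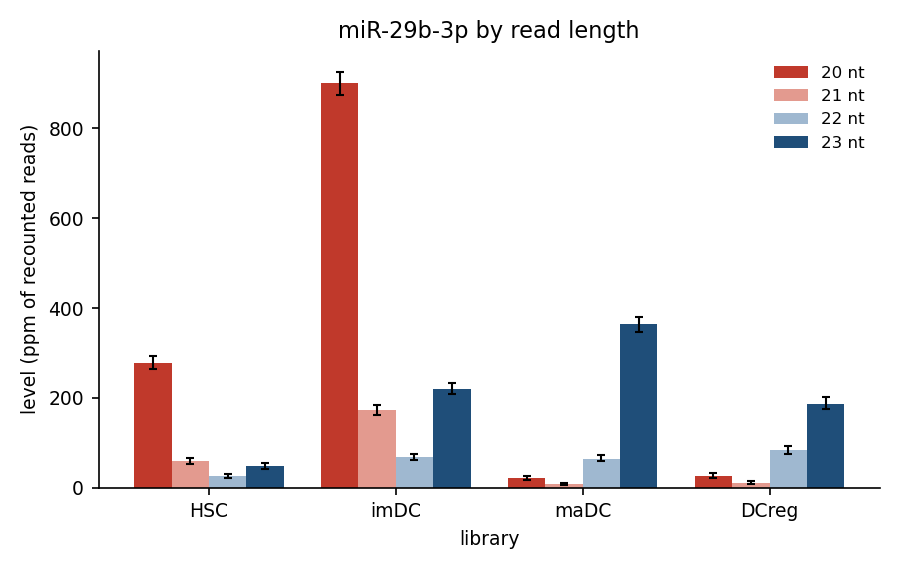
Level of the 20-, 21-, 22- and 23-nt sequences of miR-29b-3p in each library, in ppm of recounted reads, with exact 95% counting intervals and 1 library per cell type. The 20-nt form stands at 22.1 ppm in maDC and 900 ppm in imDC, while the 23-nt form is highest in maDC, at 364 ppm.

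As a share of all miR-29b-3p reads, those ending 2 or more nt short made up 78.8% in HSC (77.1% to 80.5%), 76.0% in imDC (75.0% to 77.0%), 7.97% in maDC (7.00% to 9.03%) and 20.3% in DCreg (18.3% to 22.5%). Reads ending at the annotated base were 11.0% in HSC, 15.1% in imDC, then 71.8% in maDC and 49.8% in DCreg. Reads that held the whole AGUGUU hexamer, with or without further bases, were 11.7% in HSC (10.4% to 13.0%), 16.4% in imDC (15.6% to 17.2%), 76.0% in maDC (74.4% to 77.6%) and 53.5% in DCreg (51.0% to 56.1%). The hexamer was therefore missing in part from most miR-29b-3p reads of HSC and imDC and present in most of those of maDC and DCreg. In DCreg 6.11% of the reads assigned to miR-29b-3p were 16 nt long, a length that cannot be told apart from miR-29c-3p; with reads of at least 18 nt the short share in DCreg was 14.4%, and in maDC 6.89%.

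The other members kept their annotated ends. miR-29a-3p ended there in 74.9% of reads in HSC, 87.6% in imDC, 90.5% in maDC, with 84.3% in DCreg, and miR-29c-3p in 82.9%, 89.8%, 90.0% and 82.5%. Reads 2 or more nt short were 0.334% to 1.30% of miR-29a-3p and 1.01% to 4.70% of miR-29c-3p, the highest being the DCreg value, with its shared 16-nt reads. A loss of exactly 1 base was the commonest shortening of miR-29a-3p, at 11.9% in HSC, 6.28% in imDC, then 3.88% in maDC and 8.52% in DCreg. For both members the annotated end was the commonest end in all 4 libraries. miR-29c-3p had a small second rise at 16 nt, the length shared with miR-29b-3p, with 3.59% of its reads in DCreg and 0.675% in maDC.

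**Figure D4:**
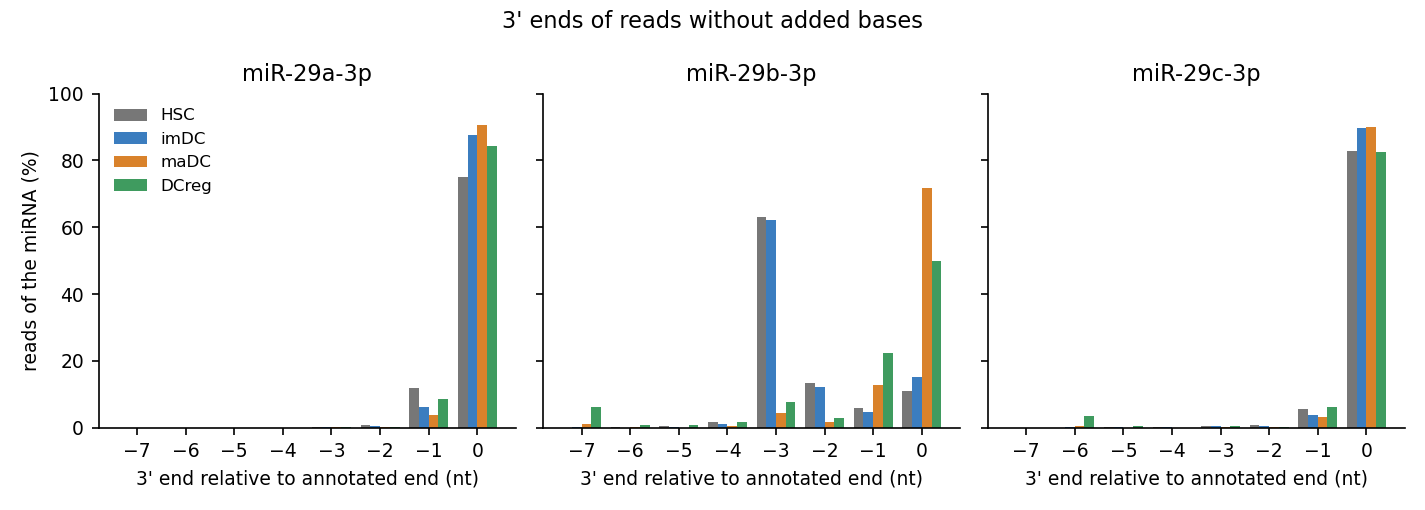
Position of the 3' end relative to the annotated end, in nt, for reads without added bases, as a percentage of each member's reads in the 4 libraries. miR-29b-3p shows 2 peaks, at 3 nt short in HSC and imDC (63.1% and 62.0%) and at the annotated end in maDC and DCreg (71.8% and 49.8%), while miR-29a-3p and miR-29c-3p peak at the annotated end in all 4.

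Short ends also differed between libraries in other miRNAs. Among the 70 miRNAs with at least 500 reads in every library, the median share of reads 2 or more nt short over the 67 outside the family was 7.66% in HSC, 7.44% in imDC, 2.10% in maDC, with 5.63% in DCreg. In maDC 51 of these 67 had a lower share than in imDC and 16 a higher one; 15 were lower by at least 10 percentage points, and the median change per miRNA was -1.04 points. Between DCreg and HSC that median was -0.037 points, with 35 of 67 lower in DCreg. In 28 of the 67, maDC and DCreg both lay below HSC and imDC. miR-29b-3p had the largest difference of the 70, with a share 68.0 points lower in maDC than in imDC. It was followed by miR-27a-3p (14.6% in maDC and 71.4% in imDC), miR-101b-3p (4.04% and 57.9%) and miR-27b-3p (44.6% and 90.7%). miR-15b-5p was opposite, at 53.8% in maDC and 29.8% in imDC. With 1 library per cell type, a property of the library and one of the cells cannot be told apart.

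**Figure D5:**
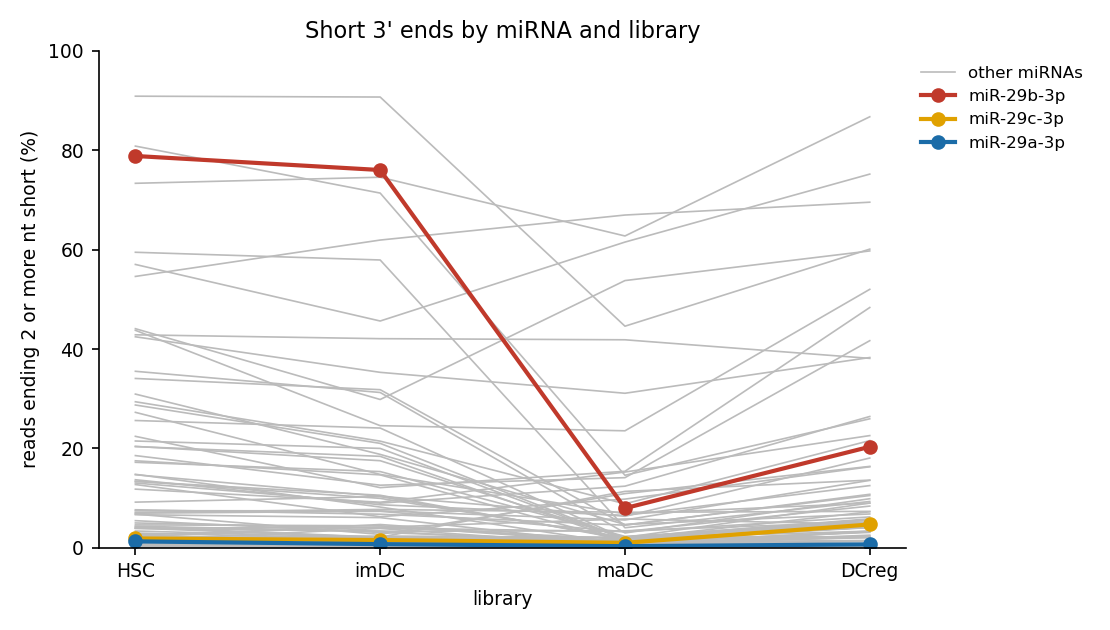
Share of reads ending 2 or more nt before the annotated 3' end for the 70 miRNAs with at least 500 reads in every library; each line is 1 miRNA, in grey for the 67 outside the family. miR-29b-3p stands at 7.97% in maDC, against 76.0% in imDC, while miR-29a-3p and miR-29c-3p stay below 5% in every library.

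Bases added past the mature end were mostly few. miR-29a-3p reads with an untemplated U at the end made up 4.31% in HSC, 0.802% in imDC, then 0.833% in maDC and 1.80% in DCreg, and those of miR-29c-3p 3.98%, 0.876%, 1.48% and 3.08%. Both members had their highest share in HSC, with DCreg second, while the other miRNAs together held 2.63%, 2.33%, 2.11% and 2.69%. In HSC 3598 of the 3709 such reads of miR-29a-3p were the 22-nt sequence with A22T, in which a changed last base and a U added after the loss of 1 base cannot be told apart. miR-29b-3p carried an untemplated U in 0.172% to 0.311% of reads and an untemplated A in 0.840% in HSC, 1.64% in imDC, 2.96% in maDC, with 3.42% in DCreg. Because miR-29b-3p ends in U, a U added after the loss of 1 base recreates its full sequence. A U added to the full sequence counts as templated. Its low U share is therefore partly set by its sequence and cannot be compared with those of miR-29a-3p and miR-29c-3p. After the full 23 bases, the next base was U in 11 copies in HSC, 27 in imDC, then 46 in maDC and 29 in DCreg; it was A in 2, 61, 33 and 19 copies, the commonest in imDC, and C, the base that follows in the Mir29b-1 hairpin above, in 0, 3, 0 and 0 copies. In the Mir29b-2 hairpin the next base is U, which can also be added without a template.

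The 5' end, which sets the seed, was fixed in all members. Between 97.5% and 99.7% of reads started at the annotated base in each of the 4 libraries. A start 1 base earlier occurred in 1.52% of miR-29a-3p reads in HSC, 2.28% in imDC, 1.57% in maDC, with 0.880% in DCreg, and in 98.0% to 99.4% of these the extra base was the one in the hairpin.

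Because a single C10T read error would turn miR-29a-3p into miR-29c-3p, the copies of miR-29c-3p were set beside other substitutions in miR-29a-3p. At the annotated length miR-29c-3p had 1582 copies against 63900 of miR-29a-3p in HSC, 4796 against 153158 in imDC, 3984 against 145948 in maDC and 2089 against 102980 in DCreg. That is 2.48%, 3.13%, 2.73% and 2.03% of miR-29a-3p. At the other 4 C positions a C-to-T change occurred in 0.0973% to 0.564% of copies over the 4 libraries. At position 10 a change to A stood at 0.130% to 0.232% and one to G at 0.0171% to 0.0534%. miR-29c-3p was thus 5.31 times as common as the commonest other C-to-T change of miR-29a-3p in HSC, 7.56 times in imDC, 4.84 times in maDC and 3.96 times in DCreg. The commonest other substitutions were A22T, the sequence counted above among U-ended reads, in HSC (5.63%) and DCreg (2.08%) and T20G in imDC (1.75%) and maDC (2.05%).

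For each member the 3 non-member miRNAs with the most similar pattern were identified among 184 miRNAs, by the largest difference in centred log2 ppm over the 4 libraries. Closest to miR-29a-3p was miR-320-3p, within 0.05 log2 units, at 9069 ppm in HSC, 13376 ppm in imDC, 16241 ppm in maDC and 16097 ppm in DCreg; its recounted level was far lower, 536 to 902 ppm. miR-505-5p (0.44) and miR-24-3p (0.49) came next. Closest to miR-29b-3p was miR-362-3p (0.28), at 151, 334, 149 and 117 ppm, then miR-1981-5p (0.32) and miR-664-5p (0.37), which had no recounted reads. Closest to miR-29c-3p were miR-505-5p (0.12), miR-1981-5p (0.19) and miR-21-3p (0.33). By the recount miR-505-5p stood at 18.3 ppm in HSC, 47.4 ppm in imDC, 42.5 ppm in maDC and 6.87 ppm in DCreg, so DCreg lay below HSC. Within the family, miR-29c-3p lay 0.32 from miR-29a-3p and 0.51 from miR-29b-3p, and miR-29a-3p and miR-29b-3p lay 0.83 apart. The 4 points of each pattern share their libraries, so these distances are descriptions.

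Beside miR-29, 8 listed miRNAs are known to target DNA methylation enzymes, methyltransferases for some and demethylases for others. Their sum therefore does not measure 1 shared action. Summed, they stood at 17781 ppm in HSC, 16504 ppm in imDC, 8783 ppm in maDC and 10093 ppm in DCreg by the deposited values. By the recount they summed to 14782 ppm in HSC, 15027 ppm in imDC, 6370 ppm in maDC and 7344 ppm in DCreg, so the highest library was HSC by 1 measure and imDC by the other. In DCreg over HSC 5 of the 8 were called lower and 2 higher, where 56.0% and 19.4% of all 175 tested were, with a median log2 ratio of -1.31 beside -1.43 over all tested. miR-148a-3p, which targets DNA methyltransferases, stood at 32.6 ppm in DCreg and 783 ppm in HSC, and miR-26a-5p, a regulator of DNA demethylases, at 2331 ppm in DCreg and 5750 ppm in HSC. miR-152-3p, of the miR-148a seed family, stood at 2258 ppm in DCreg against 753 ppm in HSC, and miR-22-3p at 1340 ppm in DCreg against 436 ppm in HSC. In maDC over imDC 4 of the 7 that reached 100 ppm in 1 of the 2 libraries were called lower and 0 higher, where 45.0% and 9.38% of all 160 were, with a median log2 ratio of -1.06 beside -0.88. In imDC over HSC 1 of 8 was called higher and 4 lower, where 26.2% and 28.3% of all 187 were.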

How the data were processed

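Small RNA of 18 to 30 nt, isolated with the mirVana kit and amplified for 12 cycles, was sequenced on the Solexa platform, per the labels' protocols. The authors filtered out other RNA classes and used miRBase release 19, per the labels; the aligner, mismatches allowed and multiply mapping reads: not given in the sources used here. As deposited, the series table holds a score per mature miRNA and hairpin, headed as normalised counts with no method stated. Values were summed over hairpins, given a pseudocount of 0.5 in ratios and scaled to 1000000. The deposited sequence lists give each unique read with its copy number, and PCR copies cannot be told from separate molecules. Reads of at least 16 nt were matched exactly to the table's mature sequences (5' end within 2 nt, at most 5 unmatched 3' bases, longest match taken, ties divided equally). With 1 library per cell type there was no test: differences of at least 2-fold with 100 ppm in 1 of 2 libraries were called, and recounted shares and ratios carry exact 95% binomial (Clopper-Pearson) intervals, which cover counting error only. A count of 0 allows up to 3 reads, 0.543 to 0.763 ppm by library.

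Named miRNAs were the members, their 5p arms, the 3 closest patterns per member among miRNAs reaching 100 ppm in 1 library and above 3 in all 4, and 8 miRNAs known to target DNA methylation enzymes. Members, lists and marker sets were chosen with earlier results of these data known. RefSeq hairpins matched 796 of the table's 1064 distinct mature sequences. Python 3.11.15, numpy 2.4.6, scipy 1.17.1 and matplotlib 3.10.9 were used, and the matching was tested on simulated reads. Alternatives were the recount, other scalings, levels, folds and matching rules.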

Additional observations from a re-analysis of the deposited data

How the results depend on the processing

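The family log2 ratios, tried under 7 alternatives in each of 6 comparisons, kept their sign in 35 of 42. In imDC over HSC (0.64) the recount gave 1.06, the trimmed mean of M-values 0.85, the median of ratios 0.55, all listed reads as the total 0.89, leaving out the 5 most abundant miRNAs 0.68, and reads ending within 1 nt of the annotated 3' end 1.13; the last count was chosen after seeing the data. In maDC over imDC (0.17) the same 6 gave -0.23, 0.72, 0.87, -0.067, 0.27 and -0.33. In DCreg over imDC (0.22) they gave -0.17, 0.88, 0.94, -0.31, 0.67 and -0.25. In DCreg over HSC (0.86) they gave 0.89, 1.73, 1.49, 0.59, 1.35 and 0.89. In maDC over HSC (0.81) the first 5 gave 0.83, 1.57, 1.42, 0.83 and 0.94. In DCreg over maDC (0.05) the last 5 gave 0.16, 0.067, -0.24, 0.40 and 0.079. A pseudocount of 5 changed none of them. The calls numbered 4 in the deposited values, 7 with the trimmed mean of M-values, 7 with the median of ratios, 9 at 1.5-fold, and 4 to 6 otherwise. Member ratios kept their sign in 110 of 126 alternatives.

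By the deposited values, miR-29a-3p held 96.7% of the family in HSC, 95.3% in imDC, then 96.4% in maDC and 97.4% in DCreg, miR-29b-3p 0.946%, 1.53%, 0.735% and 0.552%, and miR-29c-3p 2.32%, 3.18%, 2.91% and 2.09%. In DCreg, reads of at least 18 nt gave 97.0%, 1.10% and 1.92% for the 3 members, and leaving out shared reads 97.0%, 1.10% and 1.92%. The short share of miR-29b-3p with reads of at least 18 nt was 6.89% in maDC and 14.4% in DCreg. With all lengths of at least 18 nt, miR-29c-3p stood at 2.30% of miR-29a-3p in HSC. The cause of these shifts was not tested, other than the loss of shared 16- and 17-nt reads. No paired analysis was possible because each cell type has a single library.

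With 1 library per cell type, no spread between animals is known. Counting intervals are narrow for miR-29a-3p and wide for the 5p arms, which had 3 to 125 reads. Scaling to a total makes every ratio relative to the other miRNAs of a library.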

Other observations

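A T20G change, counted from the 5' end, was carried by 1.68% of miR-29a-3p copies in HSC, 1.75% in imDC, then 2.05% in maDC and 1.13% in DCreg, and by 1.64%, 1.63%, 2.03% and 1.24% of miR-29c-3p copies. In miR-29b-3p, which has the same base at that position, it stood at 0.791%, 0.687%, 0.747% and 0.407%. Over 8 to 11 other miRNAs with a T at position 20 and at least 1000 copies, the median was 0.601% in HSC, 0.425% in imDC, 0.403% in maDC, with 0.380% in DCreg, and the highest value was 2.21%, 2.03%, 2.24% and 1.44%. Its cause was not tested.

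Reads matching miR-29b-3p and miR-29c-3p equally well, among them reads of 16 or 17 nt, numbered 29 in HSC, 62 in imDC, 70 in maDC, with 207 in DCreg. They made up 5.14% of the reads of the pair in DCreg, against 0.474% to 0.961% in the other 3 libraries.

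Counted by reads ending within 1 nt of the annotated 3' end and scaled to such reads of all miRNAs, miR-29b-3p stood at 96.9 ppm in HSC, 403 ppm in imDC, 515 ppm in maDC and 336 ppm in DCreg. On that scale it was 1.28-fold higher in maDC than in imDC, where the count of all its reads was 2.86-fold lower. miR-29a-3p, counted likewise, was 1.26-fold lower in maDC than in imDC, and miR-29c-3p 1.39-fold lower. This count was chosen after seeing the data.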
